A study of Mus musculus with 4 samples.

Results

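The genes described here are 34 hypoxia-induced and glycolytic genes, given as a list of names and all found under those names among the 31053 genes counted. Their UMIs were summed gene by gene, and over groups of genes, within melanoma, CD8 T, monocyte/macrophage and fibroblast cells of each library. The list holds 13 genes of glucose uptake, glycolysis and lactate production and 21 other genes that low oxygen is known to induce. The tumours were B16F10, a mouse melanoma cell line grown in mice, and were profiled cell by cell with a 5′ droplet assay. The 4 libraries were 1 each of aPD-1 (an antibody that blocks PD-1, an inhibitory receptor of T cells), D+F (the anthracycline doxorubicin, which damages DNA, together with the ROCK inhibitor fasudil), D+F+P (both drugs with the antibody) and control. All 4 tumour samples passed through enzymatic dissociation, lysis of red cells and removal of debris and dead cells, so cells that did not survive these steps were not counted. B16F10 is a single transplanted line, and doses, times of treatment and the number of mice behind a library were not given in the sources used here.

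Cells sense oxygen through the prolyl hydroxylases of the Egln family, which mark the HIF alpha subunits for binding by the VHL ubiquitin ligase and for destruction. When oxygen is short this mark is lost, HIF accumulates, pairs with Arnt and binds short response elements near its target genes. The targets take up glucose and turn it into lactate, export acid, remove mitochondria, store glycogen and lipid, and call in vessels, and several of them, among them Egln3, feed back on HIF itself. In solid tumours these programmes are high in poorly perfused regions, and both tumour and immune cells carry them. The glycolytic enzymes are also abundant in most growing cells with oxygen at hand.

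Promoter sequences of 32 of the 34 genes were taken from RefSeq (GRCm38.p6), and the 250 bases before the first listed start of each gene were searched on both strands for ACGTG and GCGTG, the core letters of the HIF response element. A CACGTG reads as ACGTG on both strands and was counted as 2 matches. At least 1 match lay in 24 of the 32 promoters (75%), against 38.6% of all 27025 promoters in the RefSeq table, and at least 2 lay in 18 of them (56.25%), against 16.8%. When any listed start of a gene was allowed, which added Vegfa, Pkm, Hk1 and Hilpda, the shares were 28 of 32 (87.5%), against 41.5% of all genes. ACGTG itself lay in 16 of the 32 (50%), against 16.6% of all promoters. A match is a description of letters, not evidence of binding. The background held all genes, expressed or not, and was not matched to the 32 for base content. The part of base content and expression in these shares was not tested. The 6 stretches below, chosen after the values were seen, come from genes that did different things in the cells: Bnip3 and Ero1l (listed in RefSeq as Ero1a) were higher in the aPD-1 and D+F melanoma cells, Slc16a3 was lower in the D+F+P melanoma cells, and P4ha1, Ldha and Gapdh stayed within 1.5-fold of control there. They are read 5′ to 3′ on the gene's own strand, with matches on either strand in capitals, and bases within an annotated exon are left out. Their positions are chr7:138909520-138909656 (minus strand) for Bnip3, chr14:45318573-45318702 (minus strand) for Ero1l, chr11:120948917-120949052 (plus strand) for Slc16a3, chr10:59323146-59323295 (plus strand) for P4ha1, chr7:46845654-46845803 (plus strand) for Ldha and chr6:125165774-125165923 (minus strand) for Gapdh.
Bnip3: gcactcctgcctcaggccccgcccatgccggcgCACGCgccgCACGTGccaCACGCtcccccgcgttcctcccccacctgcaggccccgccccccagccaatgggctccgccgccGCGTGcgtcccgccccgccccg
Ero1l: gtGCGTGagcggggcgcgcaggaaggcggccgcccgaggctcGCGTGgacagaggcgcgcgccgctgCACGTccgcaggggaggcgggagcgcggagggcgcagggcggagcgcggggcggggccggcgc
Slc16a3: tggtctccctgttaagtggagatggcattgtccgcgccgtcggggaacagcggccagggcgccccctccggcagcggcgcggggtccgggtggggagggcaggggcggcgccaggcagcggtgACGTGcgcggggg
P4ha1: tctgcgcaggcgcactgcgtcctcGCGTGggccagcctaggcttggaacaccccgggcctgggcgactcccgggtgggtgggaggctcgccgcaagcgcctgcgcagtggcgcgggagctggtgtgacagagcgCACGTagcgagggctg
Ldha: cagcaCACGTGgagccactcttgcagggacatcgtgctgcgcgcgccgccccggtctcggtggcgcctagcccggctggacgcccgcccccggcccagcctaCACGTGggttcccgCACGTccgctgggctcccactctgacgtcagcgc
Gapdh: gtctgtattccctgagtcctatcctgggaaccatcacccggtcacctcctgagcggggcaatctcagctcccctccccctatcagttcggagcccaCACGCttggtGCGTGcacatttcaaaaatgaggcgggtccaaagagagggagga
The stretch of Bnip3 held 5 matches and that of Ldha also 5, although the levels of these genes in melanoma cells went different ways. Ero1l had 3 matches, P4ha1 and Gapdh 2 each and Slc16a3 1. Promoters of the glycolytic genes held a match in 9 of 13 cases (69.2%) and those of the other genes in 15 of 19 (78.9%).

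After removal of barcodes under 300 genes, under 500 UMIs or over 20% mitochondrial UMIs, the cells numbered 2214 in aPD-1, 2483 in D+F, 2443 in D+F+P and 2275 in control. Their median UMI counts were 9563.5 in aPD-1, 12882 in D+F, 1866 in D+F+P and 16143 in control. The low D+F+P median came from shallow barcodes left unnamed. Pairs of libraries shared between 1 and 14 kept barcode sequences. Cells were clustered and named from marker genes, and a name therefore ends in "-like" and rests on clusters rebuilt here. Melanoma-like cells numbered 1103 in aPD-1, 1713 in D+F, 530 in D+F+P and 1901 in control. CD8 T-like cells numbered 281 in aPD-1, 141 in D+F and 327 in D+F+P but only 6 in control. Left out of this class were unnamed T cell groups with Cd8a in the range of the named sub-clusters. A sub-cluster led by Gzme and Gzmf held 47 cells in aPD-1, 32 in D+F, 29 in D+F+P and 1 in control. A shallow cluster held 58 cells in aPD-1, 16 in D+F, 130 in D+F+P and 0 in control. Monocyte/macrophage-like cells numbered 234 in aPD-1, 101 in D+F, 90 in D+F+P and 61 in control, and fibroblast-like cells 48 in aPD-1, 10 in D+F, 27 in D+F+P and 15 in control. The 7 melanoma markers summed to between 9930 and 10684 CPM (UMIs per 1000000 UMIs of that class and library) in melanoma-like cells, against 81.3 to 271 CPM in the CD8 T-like cells of the treated libraries. The 5 CD8 T markers summed to between 3941 and 4534 CPM in those CD8 T-like cells, and the 7 monocyte/macrophage markers to between 7483 and 10827 CPM in their class. That last class was a whole cluster of mixed make-up, in which a sub-cluster led by Saa3 and markers of other cells stayed unnamed and sub-clusters of 47 and 52 cells carried dendritic cell names. The sub-cluster led by Saa3 held 39 cells of the class in aPD-1 (16.7%), 13 in D+F (12.9%), 5 in D+F+P (5.56%) and 31 in control (50.8%). Another sub-cluster, shallow at a median of 908 UMIs, also stayed unnamed, with 10 cells in aPD-1, 4 in D+F, 6 in D+F+P and 5 in control. Only 22 control cells lay in sub-clusters named monocyte/macrophage-like. Since every group had 1 library, groups could not be tested against each other. Each level below is a sum of UMIs given as CPM, and each log2 ratio has a 95% interval that covers counting error only and says nothing of the spread between tumours. A gene was counted as higher or lower when the ratio reached 1.5-fold, with at least 20 UMIs over the pair of libraries and at least 20 cells in each. One UMI stands for 1 molecule tagged at its 5′ end, so levels of different genes were not divided by length.

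In melanoma-like cells the genes induced by low oxygen stood higher in aPD-1 and in D+F than in control. In D+F+P their sum and median were close to control, with single genes on both sides. Without Mif, the other 20 genes outside glycolysis summed to 3881 CPM in D+F+P and 3446 CPM in control. The 21 genes outside glycolysis summed to 10187 CPM in aPD-1, 10349 CPM in D+F, 8574 CPM in D+F+P and 8390 CPM in control. Their summed log2 ratio to control was 0.28 (0.27 to 0.29) for aPD-1, 0.30 (0.30 to 0.31) for D+F and 0.03 (0.02 to 0.04) for D+F+P. The 13 glycolytic genes, which carried most of the summed UMIs, differed less: 22244 CPM in aPD-1, 21929 CPM in D+F, 19747 CPM in D+F+P and 20982 CPM in control. All 34 genes passed the filter on low counts in melanoma-like cells. Their intervals against control lay above 0 for 24 genes and below 0 for 6 in aPD-1, for 24 and 4 in D+F, and for 14 and 13 in D+F+P. At least 1.5-fold higher than control were 8 of 34 in aPD-1 (6.32% of 12208 genes measured) and 7 of 34 in D+F (7.21% of 12435 genes), and none was that much lower, where 6.13% of genes were in aPD-1 and 5.11% in D+F. In D+F+P only 1 of the 34 was 1.5-fold higher, where 9.93% of 12103 genes were, and 3 were lower, where 10.9% were, so neither share stood above the background. The median log2 ratio of the 34 genes to control was 0.32 for aPD-1, 0.35 for D+F and 0.02 for D+F+P, and that of all genes measured was -0.05, -0.06 and -0.09 in the same order of libraries. The 3 comparisons share the control library.

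**Figure D1:**
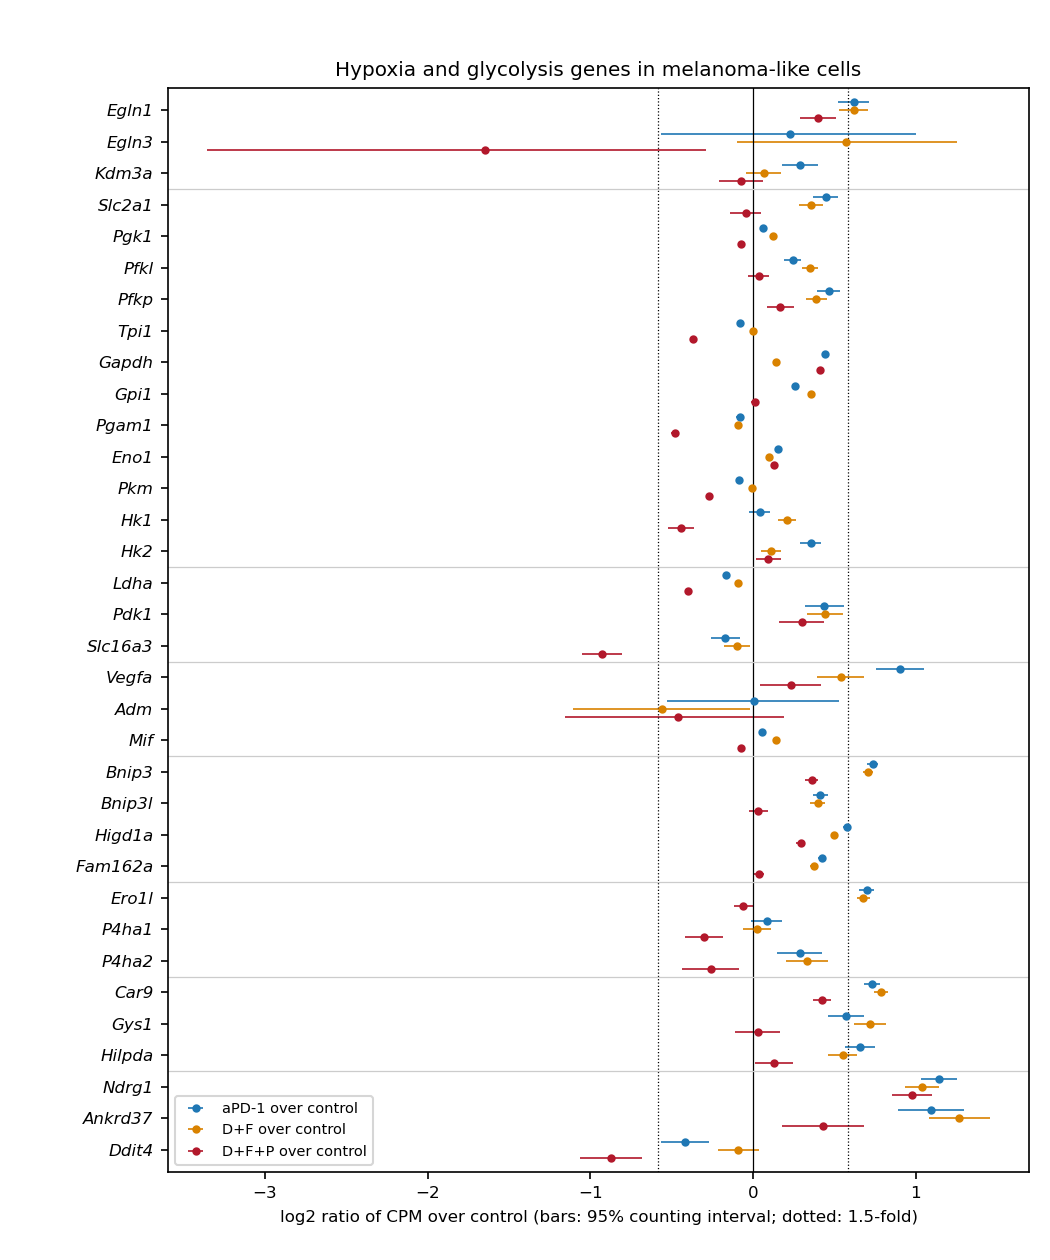
Log2 ratio of the CPM of each of the 34 genes in melanoma-like cells of each treated library over control, ordered by role. Points are ratios of 1 library to 1 library, bars are 95% counting intervals and dotted lines mark 1.5-fold; Ndrg1 and Ankrd37 lie furthest right in aPD-1 and D+F, and Slc16a3, Ddit4 and Egln3 lie left of the line in D+F+P.

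The oxygen sensors came first in the order of roles. Egln1, the main HIF prolyl hydroxylase, had 84.8 CPM in aPD-1, 84.9 CPM in D+F, 72.8 CPM in D+F+P and 55.2 CPM in control. Its log2 ratio to control was 0.62 (0.52 to 0.71) in aPD-1, 0.62 (0.53 to 0.71) in D+F and 0.40 (0.29 to 0.51) in D+F+P, so all 3 treated libraries were above control. Egln3, the more inducible hydroxylase, was rare in these cells, with 26 UMIs in aPD-1, 45 in D+F, 5 in D+F+P and 35 in control. Its ratio to control in D+F+P was -1.65 (-3.36 to -0.29), and those of aPD-1 and D+F had intervals that held 0. Kdm3a, a histone demethylase that low oxygen induces, stayed between 43.5 and 55.9 CPM in the 4 libraries.

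The largest ratios belonged to 2 stress genes. Ndrg1, a differentiation and stress gene widely used as a hypoxia marker, had 77.3 CPM in aPD-1, 71.7 CPM in D+F, 68.7 CPM in D+F+P and 34.9 CPM in control. Its log2 ratio to control was 1.15 (1.04 to 1.26) in aPD-1, 1.04 (0.93 to 1.14) in D+F and 0.98 (0.85 to 1.10) in D+F+P. It was the only one of the 34 genes that was 1.5-fold above control in all 3 treated libraries. Ankrd37, an ankyrin-repeat protein and HIF target, had 22.7 CPM in aPD-1, 25.6 CPM in D+F, 14.3 CPM in D+F+P and 10.6 CPM in control. Its ratio to control was 1.09 (0.89 to 1.3) in aPD-1 and 1.27 (1.08 to 1.46) in D+F, but 0.43 (0.18 to 0.68) in D+F+P. Ddit4, an inhibitor of mTORC1 that both low oxygen and other stresses induce, went the other way, with 26.5 CPM in aPD-1, 33.2 CPM in D+F, 19.3 CPM in D+F+P and 35.3 CPM in control. Its ratio was -0.87 (-1.06 to -0.68) in D+F+P.

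Genes acting on mitochondria were highest in aPD-1 and lowest in control. Bnip3, a receptor that directs mitochondria to autophagy, had 698 CPM in aPD-1, 684 CPM in D+F, 538 CPM in D+F+P and 419 CPM in control. Its log2 ratio to control was 0.74 (0.70 to 0.77) in aPD-1, 0.71 (0.68 to 0.74) in D+F and 0.36 (0.32 to 0.40) in D+F+P. The 4 mitochondrial genes together (Bnip3, its paralogue Bnip3l, Higd1a, which acts on the respiratory chain, and Fam162a) summed to 3577 CPM in aPD-1, 3446 CPM in D+F, 2828 CPM in D+F+P and 2453 CPM in control. Higd1a alone had 1511 CPM in aPD-1, 1433 CPM in D+F, 1242 CPM in D+F+P and 1014 CPM in control, and at a ratio of 0.58 in aPD-1 it lay just short of 1.5-fold.

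Car9, the membrane carbonic anhydrase that exports acid, had 370 CPM in aPD-1, 385 CPM in D+F, 299 CPM in D+F+P and 223 CPM in control. Its log2 ratio to control was 0.73 (0.69 to 0.78) in aPD-1, 0.79 (0.74 to 0.83) in D+F and 0.42 (0.37 to 0.48) in D+F+P. Hilpda, which blocks the breakdown of stored fat, had 89.8 CPM in aPD-1, 83.4 CPM in D+F, 62.3 CPM in D+F+P and 56.9 CPM in control. It passed 1.5-fold in aPD-1 alone (0.66, 0.57 to 0.75), and the D+F value of 0.55 was close behind. Gys1, the glycogen synthase outside the liver, had 62.5 CPM in aPD-1, 69.3 CPM in D+F, 42.9 CPM in D+F+P and 42.1 CPM in control. It passed 1.5-fold in D+F alone (0.72, 0.62 to 0.82), with 0.57 in aPD-1 and 0.03 in D+F+P.

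Among genes of the secretory pathway and secreted factors, Ero1l, the oxidase that forms disulfide bonds in the endoplasmic reticulum, had 392 CPM in aPD-1, 386 CPM in D+F, 231 CPM in D+F+P and 241 CPM in control. Its log2 ratio to control was 0.70 (0.65 to 0.74) in aPD-1 and 0.68 (0.64 to 0.72) in D+F, against -0.06 in D+F+P. Vegfa, the main growth factor for vessels, had 39.4 CPM in aPD-1, 30.6 CPM in D+F, 24.8 CPM in D+F+P and 21.1 CPM in control, and its ratio was 0.90 (0.76 to 1.05) in aPD-1. The collagen prolyl hydroxylase subunits P4ha1 and P4ha2 stayed within 1.5-fold of control in every treated library. Mif, a cytokine, had 5148 CPM in aPD-1, 5443 CPM in D+F, 4692 CPM in D+F+P and 4944 CPM in control. Without Mif the summed level of the other 20 was 5039 CPM in aPD-1, 4907 CPM in D+F, 3881 CPM in D+F+P and 3446 CPM in control. Adm, which encodes the vessel-dilating peptide adrenomedullin, had only 26 to 80 UMIs per library. Relative to control its log2 ratio was 0.0049 in aPD-1, -0.56 (-1.11 to -0.02) in D+F and -0.46 (-1.16 to 0.19) in D+F+P, and the D+F value was the lowest of the 34 genes in that comparison.

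The glycolytic genes did not differ as a block. None of the 13 passed 1.5-fold against control in any library, and their median log2 ratio was 0.15 in aPD-1, 0.12 in D+F and -0.04 in D+F+P, against 0.44, 0.50 and 0.03 for the other 21 genes. The D+F+P median of the 13 changed sign under other scalings, to 0.04 with median-of-ratios size factors and 0.01 with mitochondrial and ribosomal UMIs left out of the total. Slc2a1, the glucose transporter GLUT1, had 123 CPM in aPD-1, 116 CPM in D+F, 87.6 CPM in D+F+P and 90.4 CPM in control. Gapdh had 5085 CPM in aPD-1, 4126 CPM in D+F, 4968 CPM in D+F+P and 3738 CPM in control, so it was high in both libraries with the antibody. Ldha, which makes lactate, had 3193 CPM in aPD-1, 3360 CPM in D+F, 2718 CPM in D+F+P and 3582 CPM in control, the reverse order for D+F+P and control. Tpi1, Pgam1, Pkm and Ldha all lay below control in D+F+P, with log2 ratios of -0.37, -0.48, -0.27 and -0.40. Pdk1, the kinase that keeps pyruvate out of the mitochondrion, was above control at 50.1 CPM in aPD-1, 50.3 CPM in D+F and 45.6 CPM in D+F+P, with 37.0 CPM in control. Eno1 levels depend on how reads were split with its near copy Eno1b, which had 134 to 155 CPM, and the other abundant enzymes also have pseudogenes that could share reads. Slc16a3, the lactate exporter MCT4, had 77 CPM in aPD-1, 80.9 CPM in D+F, 45.5 CPM in D+F+P and 86.6 CPM in control, a log2 ratio of -0.93 (-1.05 to -0.81) in D+F+P.

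Adding the antibody to the 2 drugs was the third comparison of the design, with D+F+P set beside D+F and beside aPD-1. In melanoma-like cells 31 of the 34 genes were lower in D+F+P than in D+F, and all 34 were lower than in aPD-1. The share of all genes that were lower was not counted, but their medians, given below, also lay just under 0. At least 1.5-fold lower than in D+F were 8 genes (4.81% of all genes), and none was that much higher (5.39%). At least 1.5-fold lower than in aPD-1 were 5 genes (4.17%), and none was higher (5.65%). The median log2 ratio was -0.33 against D+F and -0.37 against aPD-1, where the medians of all genes were -0.04 and -0.03. Ero1l had 231 CPM in D+F+P, against 386 CPM in D+F, a log2 ratio of -0.74 (-0.80 to -0.68). Ankrd37, Gys1, Ddit4, Slc16a3 and Egln3 were also at least 1.5-fold below D+F, with ratios of -0.84, -0.69, -0.78, -0.83 and -2.22. The remaining members below that line were Hk1, the hexokinase of most tissues, at -0.65, and P4ha2 at -0.59. Gapdh went against them at 4968 CPM in D+F+P and 4126 CPM in D+F (0.27, 0.25 to 0.28). The same D+F+P library enters both comparisons.

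Other features of the melanoma-like cells moved between libraries together with these genes. The cluster led by cell-cycle genes held 5.89% of melanoma-like cells in aPD-1, 12.6% in D+F, 3.02% in D+F+P and 33.9% in control. Without that cluster the median log2 ratio of the 34 genes to control was 0.18 in aPD-1, 0.20 in D+F and -0.14 in D+F+P. Within the cluster led by interferon-response genes, the 21 genes outside glycolysis summed to 6902 CPM in aPD-1, 7015 CPM in D+F, 6666 CPM in D+F+P and 6263 CPM in control, a narrower range than over all melanoma-like cells. At the cluster mix of control the median ratio was 0.15 in aPD-1 and 0.15 in D+F, although 2 of the clusters were themselves led by genes of the list. The one led by Selenbp1 and Car9 held 131 of 1103 cells in aPD-1, 125 of 1713 in D+F, 49 of 530 in D+F+P and 50 of 1901 in control. The one led by Espn and Ero1l held 296 cells in aPD-1, 457 in D+F, 65 in D+F+P and 407 in control. The median UMI count of a melanoma-like cell was 18746 in aPD-1, 16327 in D+F, 28692 in D+F+P and 17786 in control. The 5 T cell markers summed to 4.18 CPM in aPD-1, 1.84 CPM in D+F, 9.35 CPM in D+F+P and 0.611 CPM in control in the same cells. The median ratios were recomputed under 14 alternatives, among them cells thinned to 1000 UMIs. They ranged from 0.15 to 0.38 in aPD-1, from 0.15 to 0.40 in D+F and from -0.14 to 0.10 in D+F+P. Beyond this, the part of depth and of T cell RNA in the ratios was not tested.

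To see whether the library sums came from all cells or from some, each melanoma-like cell was thinned to 1000 UMIs. The median cell then held 9 UMIs of the 21 genes outside glycolysis in aPD-1, 9 in D+F, 7 in D+F+P and 7 in control. A line of 17 UMIs was set from the upper end of the control cells, so the control share past it was small by design. Cells with 17 or more such UMIs made up 16.3% (14.1 to 18.6) of 1094 cells in aPD-1, 19.1% (17.2 to 21) of 1694 in D+F, 10.3% (7.87 to 13.3) of 522 in D+F+P and 8.86% (7.62 to 10.2) of 1897 in control, with exact binomial intervals. Both the middle cell and the upper tail were thus higher in aPD-1 and D+F, but the lower end was not at this depth. The 10% and 25% points of the cells lay at 3 and 5 UMIs in aPD-1, D+F and control alike. In D+F+P they lay at 2 and 4 UMIs. A melanoma-like cluster low in ribosomal UMIs (median 6.02%) held 47 of 1103 cells in aPD-1, 80 of 1713 in D+F, 38 of 530 in D+F+P and 60 of 1901 in control. Its part in the lower end was not tested. Of the glycolytic genes, 35 or more UMIs, a line set in the same way, were found in 10.2% of cells in aPD-1, 11.6% in D+F, 7.85% in D+F+P and 8.96% in control. Thinning to 1000 UMIs left out between 4 and 19 shallower cells per library. At 2000 UMIs per cell the 10% and 25% points of the genes outside glycolysis lay at 6 and 11 UMIs in aPD-1 and 7 and 11 in D+F. They lay at 6 and 9 in D+F+P and 7 and 10 in control.

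**Figure D2:**
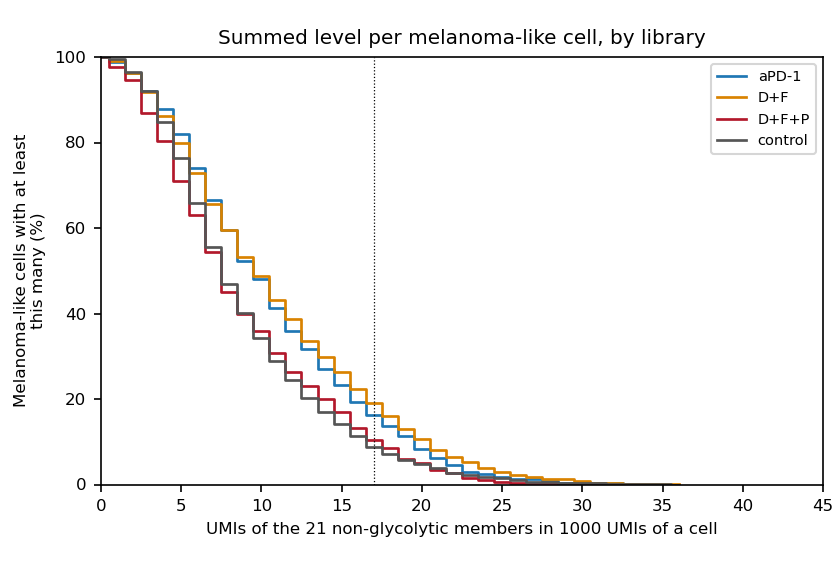
Share of melanoma-like cells (vertical axis, percent) with at least the number of UMIs on the horizontal axis from the 21 genes outside glycolysis, in 1000 UMIs drawn from each cell. Lines are the 4 libraries and the dotted line marks 17 UMIs, a value set from the control cells. At that line 16.3% of aPD-1, 19.1% of D+F, 10.3% of D+F+P and 8.86% of control cells remain.

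Across single melanoma-like cells the genes ranged without a gap from those that varied closely together to those that did not. Pearson's r of a gene with the summed other genes outside glycolysis was computed on log-normalised levels within each library, as a description of cells that share a library and differ in depth. The r of Higd1a lay between 0.77 and 0.83 over the 4 libraries, those of Bnip3 and Fam162a between 0.78 and 0.80, and that of Car9 between 0.70 and 0.76. The glycolytic genes Pgk1 (0.71 to 0.77) and Gapdh (0.68 to 0.72) were close to these, with Ldha at 0.60 to 0.64. At the other end stood Adm (-0.01 to 0.06), Egln3 (0.09 to 0.13) and Kdm3a (0.10 to 0.17). Adm and Egln3 had at most 80 UMIs in a library, whereas Kdm3a was at 43.5 CPM or more. Among genes outside the list, the 10 with the highest lowest r were Bsg (0.68 to 0.75), the chaperone of lactate transporters, then Espn, Aldoa, Selenbp1, Prelid2, Mt1, Ndufv3, Grhpr, Anxa2 and Cnn2, the last at 0.42 to 0.44. Aldoa, the glycolytic aldolase absent from the list, lay at 0.58 to 0.61.

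In the whole monocyte/macrophage-like cluster most of the genes were lower in every treated library than in control, which in aPD-1 and D+F was opposite to melanoma-like cells. The direction depended on the make-up of the cluster: in its sub-clusters named monocyte/macrophage-like alone, with 22 control cells, the median log2 ratio to control was 0.18 in aPD-1, 0.27 in D+F and -0.10 in D+F+P. The 21 genes outside glycolysis summed to 3682 CPM in aPD-1, 3136 CPM in D+F, 2698 CPM in D+F+P and 6505 CPM in control. The glycolytic genes summed to 9262 CPM in aPD-1, 9038 CPM in D+F, 8257 CPM in D+F+P and 11281 CPM in control. At least 1.5-fold lower than control were 16 of 31 genes measured in aPD-1 (14.7% of all genes), 15 of 28 in D+F (14.7%) and 21 of 30 in D+F+P (17.1%). Higher were 0, 0 and 1, where 23.5%, 19.0% and 22.2% of all genes were. The median log2 ratio was -0.59 in aPD-1, -0.79 in D+F and -0.84 in D+F+P, while that of all genes measured was 0.11, 0.06 and 0.08. Under median-of-ratios scaling the median of all genes moved by -0.12 in aPD-1, and by 0.10 in D+F+P when mitochondrial and ribosomal UMIs were left out, shifts smaller than these medians. The control class held only 61 cells.

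Egln3, nearly absent from melanoma-like cells, had 34.7 CPM in aPD-1, 44.4 CPM in D+F, 24.1 CPM in D+F+P and 224 CPM in control here. Its log2 ratio to control was -2.69 (-3.36 to -2.04) in aPD-1, -2.34 (-3.18 to -1.55) in D+F and -3.22 (-4.31 to -2.26) in D+F+P. Ndrg1 had 115 CPM in aPD-1, 147 CPM in D+F, 103 CPM in D+F+P and 476 CPM in control. Its ratio was -2.05 (-2.44 to -1.65) in aPD-1, -1.69 (-2.16 to -1.23) in D+F and -2.21 (-2.74 to -1.70) in D+F+P, against 0.98 to 1.15 in melanoma-like cells. Hilpda, the inhibitor of fat breakdown, had 474 CPM in aPD-1, 332 CPM in D+F, 210 CPM in D+F+P and 1006 CPM in control. Ankrd37 had 70.4 CPM in aPD-1, 37.4 CPM in D+F, 28.5 CPM in D+F+P and 144 CPM in control. In both genes D+F+P was the lowest library and control the highest. In the named sub-clusters alone the log2 ratio of Hilpda was 0.86 in aPD-1, 0.19 in D+F and 0.10 in D+F+P, that of Ankrd37 0.37 in aPD-1 and that of Ndrg1 0.030 in D+F. Egln3 stayed below control under every alternative that gave a value.

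Bnip3 had 242 CPM in aPD-1, 185 CPM in D+F, 184 CPM in D+F+P and 494 CPM in control. Ero1l had 154 CPM in aPD-1, 93.5 CPM in D+F, 147 CPM in D+F+P and 350 CPM in control. Vegfa had 55.5 CPM in aPD-1, 42.1 CPM in D+F, 43.8 CPM in D+F+P and 139 CPM in control. All 3 genes were at least 1.5-fold below control in each treated library, with intervals that left out 0. In the named sub-clusters alone Bnip3 turned to 0.42 in aPD-1, 0.58 in D+F and 0.29 in D+F+P, and without the sub-cluster led by Saa3 as first clustered to 0.18 in aPD-1 and 0.043 in D+F, while Ero1l and Vegfa stayed below control under every alternative that gave a value. The glucose transporter Slc2a1 had 186 CPM in aPD-1, 166 CPM in D+F, 131 CPM in D+F+P and 368 CPM in control, but in the named sub-clusters its ratio was 0.54, 0.27 and 0.36 in the treated libraries in that order. The lactate exporter Slc16a3 had 197 CPM in aPD-1, 150 CPM in D+F, 138 CPM in D+F+P and 337 CPM in control. Among the enzymes between these transporters, Ldha had 1490 CPM in aPD-1, 1412 CPM in D+F, 1159 CPM in D+F+P and 1926 CPM in control, and Gapdh 1636, 1246, 1548 and 1692 CPM in the same order. Gys1, Bnip3l, Ddit4, Fam162a and Higd1a were below control in all 3 libraries, although Bnip3l turned to 0.18 in aPD-1 and 0.44 in D+F, and Fam162a to 0.44 in aPD-1, in the named sub-clusters. Pfkp, the platelet form of phosphofructokinase, stood apart at 225 CPM in aPD-1, 267 CPM in D+F, 291 CPM in D+F+P and 184 CPM in control (0.66, 0.15 to 1.20, in D+F+P). Adm, P4ha2 and Car9 had too few UMIs for all 3 ratios, Egln1 for those of D+F and D+F+P, and Pdk1 and Kdm3a for that of D+F. Free melanoma RNA would give 73.7% of the Car9 level in aPD-1, 69.5% in D+F, 30.4% in D+F+P and 63.5% in control.

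**Figure D3:**
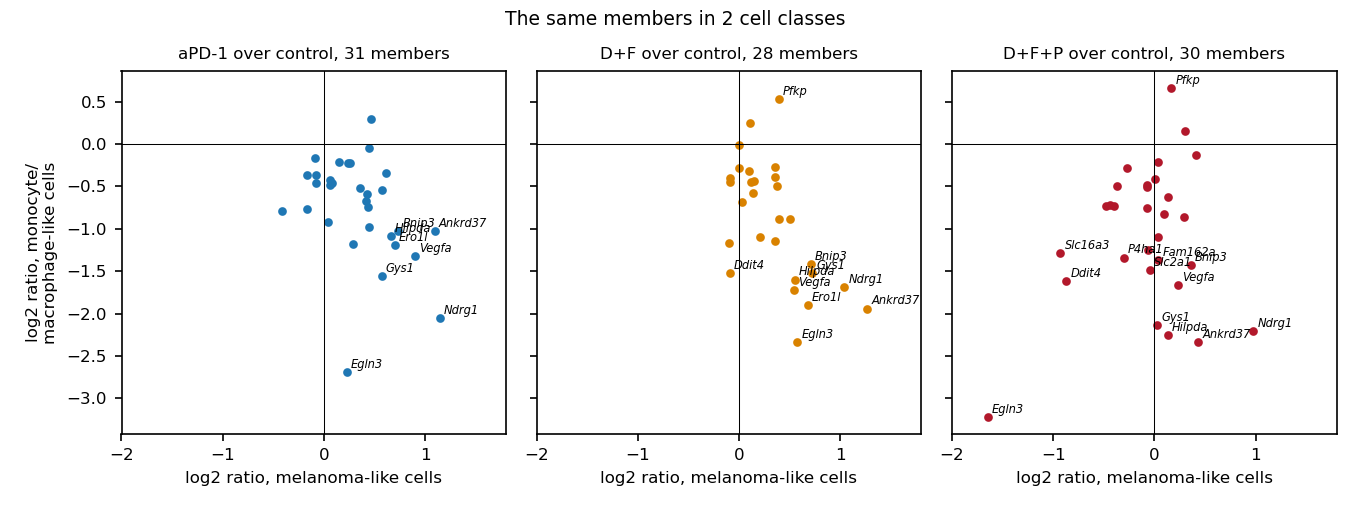
Log2 ratio to control of the same genes in melanoma-like cells (horizontal) and monocyte/macrophage-like cells (vertical), 1 panel per treated library, for the 31, 28 and 30 genes measured in both. Most points lie below 0 on the vertical axis while those of aPD-1 and D+F mostly lie right of 0 on the horizontal axis, for the whole cluster with its mixed make-up; Ndrg1 and Ankrd37 lie at the lower right and Pfkp lies above 0 in both classes.

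The make-up of this class moved with these values. A sub-cluster led by Saa3, found by clustering without the 34 genes, held 35 of 234 cells in aPD-1 (15%), 10 of 101 in D+F (9.90%), 8 of 90 in D+F+P (8.89%) and 22 of 61 in control (36.1%, 24.2 to 49.4). Within it the 21 genes outside glycolysis summed to 9613 CPM in aPD-1, 8365 CPM in D+F, 10026 CPM in D+F+P and 12253 CPM in control, and in the rest of the class to 3002, 2716, 2164 and 3751 CPM. Egln3 in that sub-cluster had 202 CPM in aPD-1, 283 CPM in D+F, 96.7 CPM in D+F+P and 582 CPM in control, against 15.5, 25.3, 18.8 and 53.1 CPM in the rest. Without the sub-cluster the median log2 ratio of the genes to control was -0.25 in aPD-1, -0.26 in D+F and -0.55 in D+F+P. The name Saa3 fits 2 libraries only: its level over the whole class was 5.95 CPM in aPD-1, 302 CPM in D+F, 15.3 CPM in D+F+P and 2074 CPM in control. The 5 neutrophil markers summed to 21.8 CPM in aPD-1, 30.4 CPM in D+F, 50.4 CPM in D+F+P and 1621 CPM in control, and S100a9 was at 0 in the 3 treated libraries. A UMI of any of them was found in 8.55%, 9.90% and 17.8% of cells in these libraries and in 36.1% in control. Without the cells that held one, the median ratio was -0.53 in aPD-1, -0.44 in D+F and -0.85 in D+F+P, and the ratio of Egln3 was -2.47, -2.0 and -3.01. Markers of conventional dendritic cells moved the other way, at 238 CPM in aPD-1, 334 CPM in D+F, 350 CPM in D+F+P and 130 CPM in control. Those of migratory dendritic cells were at 153 CPM in aPD-1, 124 CPM in D+F, 30.7 CPM in D+F+P and 26.9 CPM in control. Those of plasmacytoid dendritic cells were at 866, 760, 727 and 799 CPM in the same order.

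**Figure D4:**
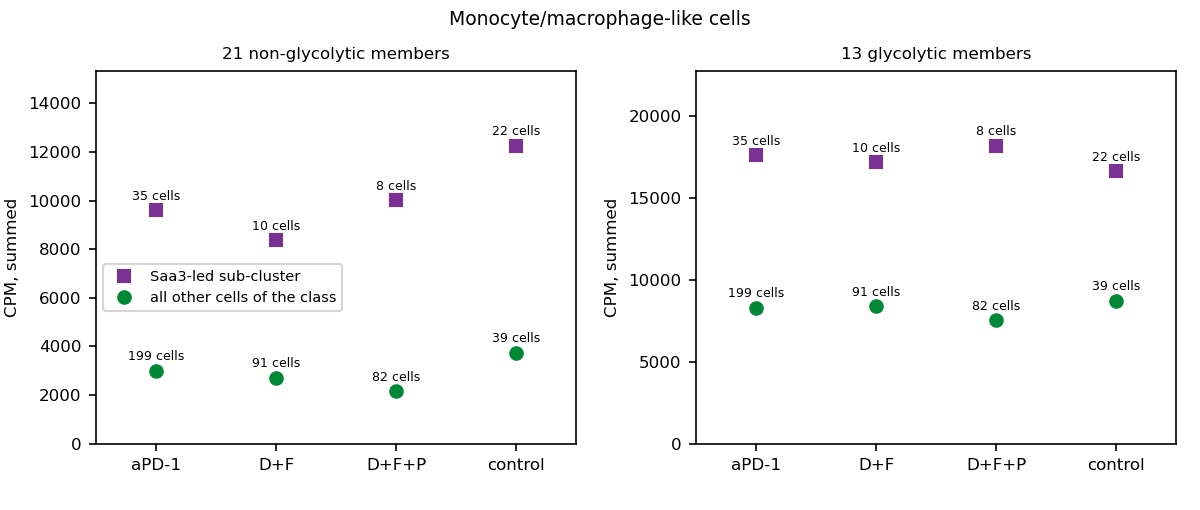
Summed CPM of the 21 genes outside glycolysis (left) and of the 13 glycolytic genes (right) in monocyte/macrophage-like cells, inside the sub-cluster led by Saa3 and in the other cells, by library with the number of cells. The sub-cluster is the higher in every library, at 8365 to 12253 CPM on the left against 2164 to 3751 CPM outside it.

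Between treated libraries the differences in this class were smaller. Against D+F, 5 of 29 genes were at least 1.5-fold lower in D+F+P (13.4% of all genes) and 3 were higher (13.7%), with a median log2 ratio of -0.17. Against aPD-1, 5 of 32 were lower (16.2%) and 2 were higher (11.4%), with a median of -0.32. The 4 shares were near those of all genes. Hk2, the inducible hexokinase, had 63.5 CPM in D+F+P, against 133 CPM in D+F (-1.07, -1.77 to -0.40). Ero1l had 147 CPM in D+F+P, against 93.5 CPM in D+F (0.65, 0.06 to 1.3), a log2 ratio that turned to -0.046 without the sub-cluster led by Saa3 and to -0.25 with cells named from their own markers. Hilpda in D+F+P was below both D+F (-0.66) and aPD-1 (-1.17, -1.50 to -0.85).

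CD8 T-like cells could be compared only among the treated libraries, since control held 6 of them. The 21 genes outside glycolysis summed to 3068 CPM in D+F+P, 3663 CPM in D+F and 3277 CPM in aPD-1, and the glycolytic genes to 8522 CPM in D+F+P, 9372 CPM in D+F and 9211 CPM in aPD-1. At least 1.5-fold lower in D+F+P were 4 of 30 genes against D+F (9.31% of all genes) and 7 of 31 against aPD-1 (7.67%). Higher were 2 against D+F (13.1%) and 1 against aPD-1 (9.73%). The median log2 ratio was -0.25 against D+F and -0.20 against aPD-1, with medians of all genes at -0.02 and -0.00. One of the 7 genes was Car9, whose level was close to that of free melanoma RNA. The sub-clusters of the class were filled unevenly: that led by Lgals3 and Ccl5 held 111 of 327 cells in D+F+P, 15 of 141 in D+F and 54 of 281 in aPD-1, and that led by Ccr8 held 26 in D+F+P, 47 in D+F and 74 in aPD-1. The cycling sub-cluster held 75 cells in D+F+P, 52 in D+F and 85 in aPD-1, and within it the 21 genes summed to 3044 CPM in D+F+P, 3673 CPM in D+F and 3176 CPM in aPD-1. The D+F+P cells were also deeper, with a median of 10110 UMIs, against 5762 in D+F and 6387 in aPD-1.

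Ankrd37 in CD8 T-like cells had 13.4 CPM in D+F+P, against 58.6 CPM in D+F and 36 CPM in aPD-1. Its log2 ratio was -2.13 (-2.72 to -1.54) against D+F and -1.43 (-1.99 to -0.87) against aPD-1. Within the cycling sub-cluster it had 8.72 CPM in D+F+P, 64.1 CPM in D+F and 30.5 CPM in aPD-1. Ddit4, which restrains mTORC1, had 70.7 CPM in D+F+P, against 144 CPM in D+F (-1.03, -1.34 to -0.71) and 86.2 CPM in aPD-1. Both genes were highest in D+F. Slc2a1 had 55.1 CPM in D+F+P, against 73.8 CPM in D+F and 103 CPM in aPD-1, a ratio to aPD-1 of -0.90 (-1.20 to -0.61). Slc16a3, P4ha1 and Hk1 followed the same order against aPD-1, at -0.64, -0.75 and -0.66. Kdm3a had 13.4 CPM in D+F+P, against 31.5 CPM in D+F (-1.23) and 20.6 CPM in aPD-1 (-0.63).

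Against these, Egln3 had 13.6 CPM in D+F+P, 6.51 CPM in D+F and 6.87 CPM in aPD-1, a ratio to aPD-1 of 0.99 (0.08 to 2.0). Pdk1 had 17.8 CPM in D+F+P, 7.59 CPM in D+F and 19.6 CPM in aPD-1, so D+F was the library that stood low, on 7 UMIs. Gapdh had 1697 CPM in D+F+P, 1213 CPM in D+F and 1540 CPM in aPD-1, so D+F was the lowest of the 3, as it was in melanoma-like cells. Hilpda had 245 CPM in D+F+P, 307 CPM in D+F and 235 CPM in aPD-1. Vegfa had 5 UMIs in D+F+P, 0 in D+F and 2 in aPD-1, and Adm 1 UMI in aPD-1 alone, so neither was resolved. Car9 stood at 2.23 CPM in D+F+P, 7.59 CPM in D+F and 6.34 CPM in aPD-1, where free melanoma RNA alone would give 2.21, 10.4 and 7.22 CPM, since pigment genes of melanoma were found in these cells at 0.739%, 2.71% and 1.95% of their melanoma level. No difference is read from Car9 here.

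In fibroblast-like cells the 27 cells of D+F+P could be set beside the 48 of aPD-1. At least 1.5-fold lower were 4 of 33 genes (15.7% of all genes) and higher was 1 (22.8%), with a median log2 ratio of -0.24, so these shares lay under those of all genes. Higd1a had 262 CPM in D+F+P and 570 CPM in aPD-1 (-1.12, -1.44 to -0.82). Vegfa went the other way, with 233 CPM in D+F+P and 126 CPM in aPD-1 (0.89, 0.47 to 1.31). Egln3 had 45.6 CPM in D+F+P and 80.9 CPM in aPD-1 (-0.83, -1.65 to -0.07), a log2 ratio that was 0.0039 when every cell weighed the same. P4ha2, which modifies collagen, had 180 CPM in D+F+P and 271 CPM in aPD-1 (-0.59, -0.99 to -0.20).

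The cell classes differed in which of the 34 genes they carried, in levels set side by side without a test. Car9 reached 385 CPM in D+F melanoma-like cells and at most 23.4 CPM in any library of the other classes. Adm was highest in fibroblast-like cells, at 103 CPM in D+F+P and 119 CPM in aPD-1 fibroblast-like cells, with 1.66 to 2.45 CPM in melanoma-like cells of the 4 libraries. Egln3 was carried by monocyte/macrophage-like and fibroblast-like cells and stayed at 1.59 CPM or less in melanoma-like cells. Vegfa was highest in the 27 fibroblast-like cells of D+F+P at 233 CPM and, among classes and libraries with at least 20 cells, next in control monocyte/macrophage-like cells at 139 CPM, above the 39.4 CPM of aPD-1 melanoma-like cells. P4ha2 was highest in fibroblast-like cells and nearly absent from CD8 T-like cells, with 2 to 4 UMIs per treated library. Mif, Gapdh, Ldha and Pgk1 were highest in melanoma-like cells among classes and libraries with at least 20 cells. Free melanoma RNA would account for a median of 1.97% to 7.75% of the members' levels in CD8 T-like cells of the treated libraries and 4.14% to 10.4% in monocyte/macrophage-like cells.

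**Figure D5:**
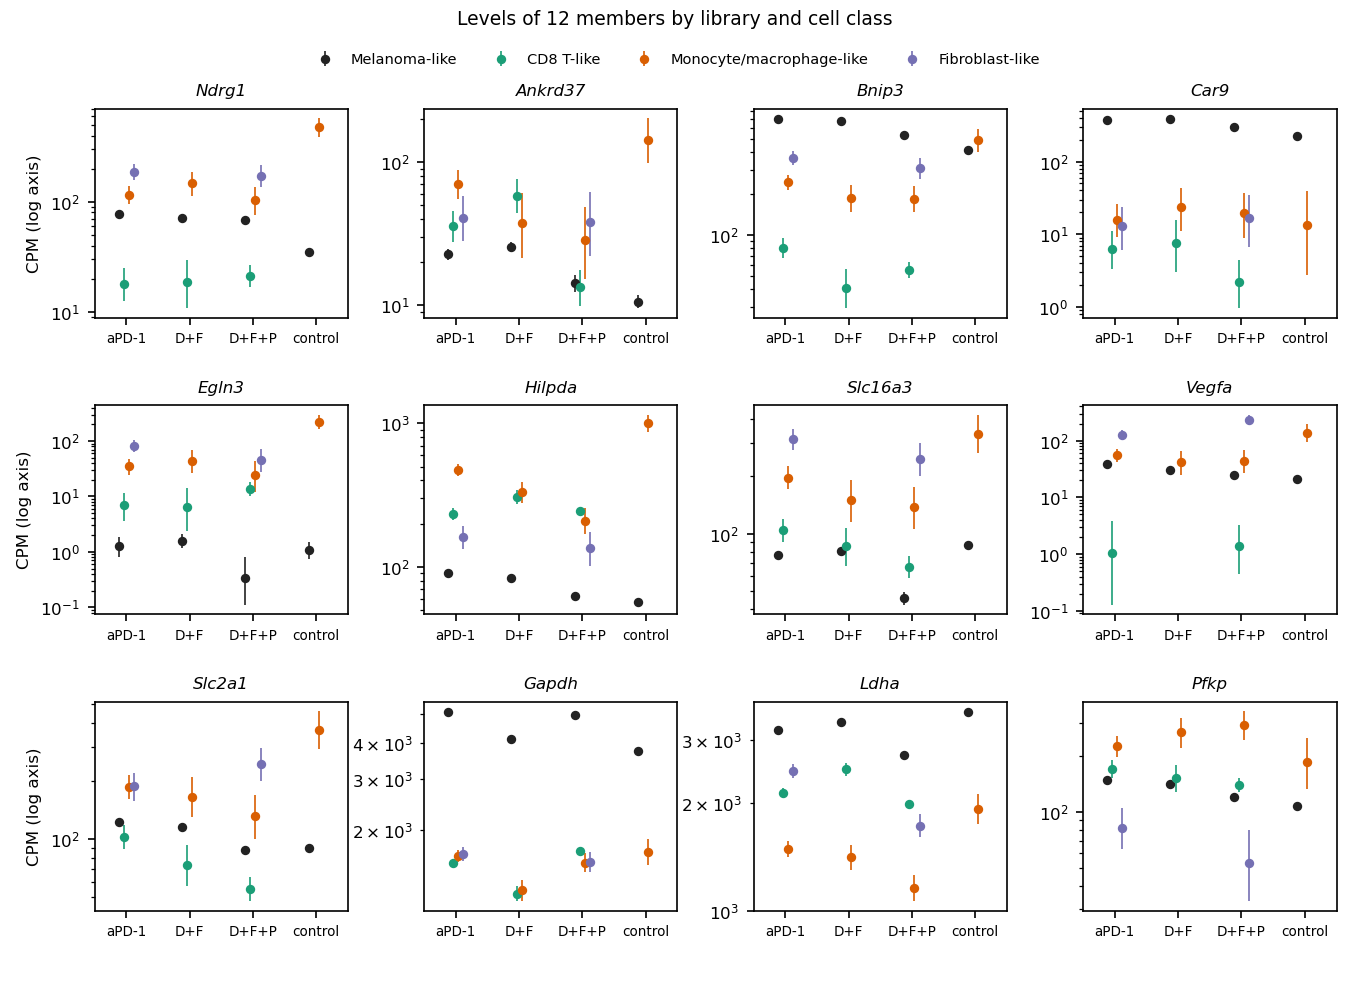
CPM (log axis) of 12 of the genes by library and cell class, with exact 95% Poisson intervals; class and library pairs under 20 cells and genes with no UMI are left out. In aPD-1 and D+F, Ndrg1 and Hilpda lie above control in melanoma-like cells and below it in monocyte/macrophage-like cells, and Car9 lies far higher in melanoma-like cells than in the others.

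Other genes of the pathway were read from lists that are no part of the 34. The 15 measured genes of the HIF machinery had median log2 ratios to control in melanoma-like cells of 0.02 in aPD-1, -0.05 in D+F and -0.02 in D+F+P. None of them was 1.5-fold apart from control in aPD-1 or D+F, and 3 were higher and 1 lower in D+F+P, where 9.93% and 10.9% of all genes were. Hif1a itself had 68.8 CPM in aPD-1, 76.2 CPM in D+F, 74.5 CPM in D+F+P and 75.6 CPM in control, which says nothing of its protein. Vhl was above control at 0.43 (0.26 to 0.61) in aPD-1 and 0.51 (0.35 to 0.67) in D+F. Cited2, a HIF target that competes with HIF for its coactivators, had log2 ratios of 0.55 in aPD-1, 0.26 in D+F and 1.21 (1.10 to 1.33) in D+F+P. In CD8 T-like cells Cited2 was also higher in D+F+P, by 1.73 (0.97 to 2.60) against D+F and 1.28 (0.79 to 1.8) against aPD-1. The ubiquitin ligases Siah1a and Siah2, which target HIF hydroxylases, were above control in D+F+P at 0.74 and 0.61.

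Among 27 measured HIF targets outside the list, 5 were higher and 4 lower than control in aPD-1, 2 and 1 in D+F, and 0 and 7 in D+F+P, with medians of 0.18, 0.12 and -0.10. Of all genes 6.32% were higher and 6.13% lower in aPD-1, 7.21% and 5.11% in D+F, and 9.93% and 10.9% in D+F+P. Pgf, placental growth factor, was among the highest at 1.13 (0.90 to 1.37) in aPD-1 and 1.0 (0.78 to 1.22) in D+F. Mxi1, a partner of Max, was at 0.84 in aPD-1 and 0.52 in D+F, and Selenbp1 at 0.89 in D+F. Tfrc, the transferrin receptor, was below control in every treated library, at -0.93 in aPD-1, -1.18 in D+F and -1.31 (-1.46 to -1.17) in D+F+P. In monocyte/macrophage-like cells the same list had medians of -0.37 in aPD-1, -0.81 in D+F and -0.93 in D+F+P over 16, 13 and 13 genes measured. Nos2, the inducible nitric oxide synthase, was the lowest at -3.03 (-3.72 to -2.36) in aPD-1, -3.37 (-4.51 to -2.39) in D+F and -2.47 (-3.29 to -1.70) in D+F+P. Cxcr4 was above control there at 1.88, 1.72 and 2.38, on 3 control UMIs.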

How the data were processed

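UMI counts per gene and barcode were deposited by the authors as 1 matrix per library, with no normalization. Per the submitters' processing notes, Cell Ranger 3.1.0 and the build GRCm38 (mm10) were used, and the annotation release is not given in the sources used here. Barcodes were kept at 300 genes, 500 UMIs and 20% mitochondrial UMIs. Scrublet marked 46 of 9461 barcodes (0.486%), under the 0.5% at which it can be held to have worked, so doublets remain among the 9415 cells kept. Total UMIs per deposited matrix were 27216211 in aPD-1, 31937128 in D+F, 22691663 in D+F+P and 34444856 in control. Cells were clustered with scanpy 1.11.5 (2000 variable genes, 30 principal components, 15 neighbours, Leiden resolution 1) and named from markers. UMIs were summed per class and library, scaled to CPM and compared as log2 ratios with exact conditional binomial intervals (scipy 1.17.1). Levels have exact Poisson intervals and shares exact binomial ones, all at 95%, and none of them covers the spread between tumours. The scripts for ratios were tested on simulated data. Beside the 34 genes, the text names genes among the 3 furthest from 0 in each direction within another list in at least 1 comparison, and the 10 with the highest lowest r over the 4 libraries among genes found in at least 5% of melanoma-like cells; Saa3, Eno1b and cell markers were named after values were seen. The genes and lists were chosen with earlier results of these data known. Alternatives covered scaling, filters, fold, cell naming, cell mix and depth, and none of them dealt with doublets.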

Additional observations from a re-analysis of the deposited data

Results flagged for a closer look

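Several genes lay past 1.5-fold on opposite sides in 2 cell classes under the same comparison. None of these differences between classes was tested, since each rests on 1 library per group, and no cause was weighed. Several of the monocyte/macrophage-like values turned positive when that class was cut down to its named sub-clusters, as given after each comparison. In aPD-1 over control the log2 ratios in melanoma-like and monocyte/macrophage-like cells were 0.90 and -1.33 for Vegfa, 0.74 and -1.03 for Bnip3, 1.15 and -2.05 for Ndrg1, 0.70 and -1.19 for Ero1l, 1.09 and -1.03 for Ankrd37, and 0.66 and -1.08 for Hilpda. In the named sub-clusters the second value became 0.42 for Bnip3, 0.37 for Ankrd37 and 0.86 for Hilpda, the same side as in melanoma-like cells. In D+F over control they were 0.71 and -1.42 for Bnip3, 1.04 and -1.69 for Ndrg1, 0.68 and -1.90 for Ero1l, 1.27 and -1.94 for Ankrd37, and 0.72 and -1.53 for Gys1. In the named sub-clusters the second value became 0.58 for Bnip3 and 0.030 for Ndrg1. In D+F+P over control they were 0.98 and -2.21 for Ndrg1. In D+F+P over D+F, Ero1l had -0.74 in melanoma-like and 0.65 in monocyte/macrophage-like cells, but the second value was -0.25 with cells named from their own markers and -0.046 without the sub-cluster led by Saa3. In D+F+P over aPD-1, Vegfa had -0.67 in melanoma-like and 0.89 in fibroblast-like cells. Egln3 in the same comparison had -1.87 in melanoma-like, 0.99 in CD8 T-like and -0.83 in fibroblast-like cells, on 5 D+F+P UMIs in melanoma-like cells.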

How the results depend on the processing

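No paired analysis was possible because each group had 1 library. For the same reason no library could be left out, and the spread between tumours is unknown. No ratio to control exists for CD8 T-like cells (6 in control), and fibroblast-like cells allowed D+F+P against aPD-1 alone. Of 176 recomputed median log2 ratios, 171 kept their sign, and of 1348 recomputed ratios of genes past 1.5-fold, 1179 stayed past it and 30 changed sign; the causes were not tested. Leaving out clusters, sub-clusters or cells with neutrophil markers was chosen after seeing the data. At the cluster mix of control, the melanoma-like medians were 0.15 for aPD-1, 0.15 for D+F, -0.23 for D+F+P over D+F and -0.21 over aPD-1. Without the cluster led by cell-cycle genes they were 0.18 for aPD-1, 0.20 for D+F and -0.14 for D+F+P against control, and median-of-ratios scaling gave 0.10 for D+F+P. In monocyte/macrophage-like cells without the sub-cluster led by Saa3, the medians were -0.12 in aPD-1, -0.25 in D+F and -0.29 in D+F+P, and with that sub-cluster found without the 34 genes the D+F median was -0.26. With cells named 1 by 1 from their own markers the D+F median was -0.15. In the sub-clusters named monocyte/macrophage-like alone they were 0.18, 0.27 and -0.10. Both these sub-clusters and the sub-cluster led by Saa3 as first clustered were found with the 34 genes open to the clustering.

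Counts of genes past the fold depend on it, and each is given with the share of all genes past the same fold. At a ratio of 5 to 4 and at 2-fold the melanoma-like counts above control were 17 (14.3% of all genes) and 2 (2.41%) in aPD-1, 19 (14.1%) and 2 (3.37%) in D+F, and 6 (18.0%) and 0 (4.59%) in D+F+P. Lower in D+F+P were 18 (13.4%) and 1 (1.63%) relative to D+F, and 18 (13.2%) and 1 (1.09%) relative to aPD-1. In CD8 T-like cells 11 (21.8%) were lower at 5 to 4 in D+F+P than in D+F, and 11 (19.3%) and 2 (1.92%) than in aPD-1. In monocyte/macrophage-like cells 25 (24.5%) and 9 (5.06%) were lower in aPD-1 than in control, 9 (25.9%) and 1 (4.40%) in D+F+P than in D+F, and 16 (28.1%) and 2 (6.24%) in D+F+P than in aPD-1. In fibroblast-like cells they were 13 (27.0%) and 1 (6.6%). At 2000 UMIs per cell a line of 31 UMIs was again set from the control cells. The share of melanoma-like cells at or above it was 19.9% in aPD-1, 23.1% in D+F, 11.1% in D+F+P and 9.80% in control.

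Genes that changed sign against control did so in monocyte/macrophage-like cells. In aPD-1, without the sub-cluster led by Saa3 and in the named sub-clusters alone, the log2 ratios were 0.23 and 0.54 for Slc2a1, 0.18 and 0.42 for Bnip3, 0.17 and 0.18 for Bnip3l, 0.29 and 0.37 for Ankrd37, and 0.40 and 0.86 for Hilpda, with 0.44 for Fam162a in the second. With the sub-cluster found without the 34 genes left out, Bnip3l was 0.15 and Ankrd37 0.27, and Ankrd37 was 0.12 by own markers. In D+F they were 0.043 and 0.58 for Bnip3 and 0.018 and 0.44 for Bnip3l, with 0.27 for Slc2a1, 0.030 for Ndrg1 and 0.19 for Hilpda in the named sub-clusters, and 0.16 for Ndrg1 without the sub-cluster found without the 34 genes. In D+F+P the named sub-clusters gave 0.36 for Slc2a1, 0.29 for Bnip3, 0.27 for Pgam1, 0.032 for Mif and 0.10 for Hilpda. Against D+F, Ero1l in D+F+P was -0.25 by own markers and -0.046 without that last sub-cluster. Egln3 in fibroblast-like cells was 0.0039 as a mean over cells.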

Other observations

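Genes of mitochondrial pyruvate use lay slightly below control in melanoma-like cells. The 15 genes of pyruvate dehydrogenase and the citric acid cycle had median log2 ratios to control of -0.24 in aPD-1, -0.12 in D+F and -0.29 in D+F+P. Idh3a, a subunit of isocitrate dehydrogenase, was at -0.48 in aPD-1, -0.28 in D+F and -0.62 in D+F+P, and was the 1 gene of the list past 1.5-fold. Ldhb, the lactate dehydrogenase subunit found in oxidative tissues, was at -0.28 in aPD-1, -0.27 in D+F and -0.53 in D+F+P. In CD8 T-like cells Ldhb was lower in D+F+P by more, at -1.91 against D+F and -1.79 against aPD-1. Ldhb was, however, among the leading genes of a melanoma-like cluster. Pigment genes of melanoma stood in the CD8 T-like cells at 0.739% of their melanoma level in D+F+P, 2.71% in D+F and 1.95% in aPD-1. The part of free melanoma RNA in these Ldhb ratios was not tested, and no difference is read from them. Pfkfb2, which sets the level of the activator of phosphofructokinase, was above control in melanoma-like cells at 0.80 in aPD-1 and 0.85 in D+F. Hk3, the hexokinase of myeloid cells, was above control in monocyte/macrophage-like cells at 0.96 in aPD-1, 1.14 in D+F and 2.0 in D+F+P, the opposite direction to most of the 34 genes there.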
